A study of Mus musculus with 19 samples.

Results

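The genes described here are 10 genes of basal epithelial cells and of desmosomes. They are the keratin genes Krt5, Krt14, Krt15 and Krt17, the transcription factor gene Trp63 and the oxytocin receptor gene Oxtr. The desmosome genes are Dsg3, Dsc3, Dsp and Pkp1. All 10 were chosen by symbol, as the probe sets that carry that 1 symbol on the array. A probe set of its own was found for 9 of the 10, among 22180 genes with such a probe set, and Krt5 shares its probe set with Krt6a. Of the 9, 5 genes (Krt17, Oxtr, Dsg3, Dsp and Pkp1) were bright enough to be tested among 14231 genes. A gene was tested where its log2 intensity reached 4.38, the median of the whole table, on at least 4 of the 19 arrays.

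RNA came from 19 mammary tumours of MMTV-NIC mice, a transgenic line whose mammary epithelium expresses an activated ErbB2 and Cre recombinase from 1 transcript under the mouse mammary tumour virus promoter, so that floxed genes are lost in the cells that carry the oncogene. The groups were 6 tumours labelled double knockout (NIC itgb1 fl/fl itgb3 fl/fl), 4 labelled Itgb1 knockout (NIC itgb1 fl/fl), 4 labelled Itgb3 knockout (NIC itgb3 fl/fl) and 5 controls (NIC WT), and all 4 groups carry the ErbB2 and Cre transgene. Flash-frozen tumour pieces were taken at end burden, with no age given, and stroma, vessels and blood cells were left in. The integrin genes keep their sequence in those other cells. The 19 tumours carry different titles, but the labels do not say whether they came from separate animals. A p-value here weighs the spread among these 19 tumours.

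Basal cells of the mammary gland lie between the luminal cells and the basement membrane and are known for the keratin pair Krt5 and Krt14 and for Trp63. Tumours driven by ErbB2 are known as luminal in kind. Desmosomes are the junctions that anchor keratin filaments of neighbouring cells: the cadherins (desmogleins and desmocollins) span the membranes, the plakophilins and plakoglobin bind their tails, and desmoplakin ties this plaque to the filaments. Desmoplakin is used in all epithelia with desmosomes. Dsg3 and Dsc3 are known mainly from the basal and lower layers of stratified epithelia, and Pkp1 is known mainly from stratified epithelia.

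The start of the gene was taken from RefSeq for 4 of the 10 genes (Dsp, Krt5, Krt14 and Oxtr), as 250 bases before and 50 bases from the annotated start site on, in build GRCm38.p6. The pair shown is Dsp, the gene read well above the table median in every tumour, and Krt5, the keratin that marks basal cells, since these windows lie at the outer start of their genes. Capitals mark each GC box (GGGCGG, or CCGCCC on the other strand). The Dsp window is chr13:38151044-38151343 on the plus strand and the Krt5 window chr15:101712856-101713155 on the minus strand.
Dsp: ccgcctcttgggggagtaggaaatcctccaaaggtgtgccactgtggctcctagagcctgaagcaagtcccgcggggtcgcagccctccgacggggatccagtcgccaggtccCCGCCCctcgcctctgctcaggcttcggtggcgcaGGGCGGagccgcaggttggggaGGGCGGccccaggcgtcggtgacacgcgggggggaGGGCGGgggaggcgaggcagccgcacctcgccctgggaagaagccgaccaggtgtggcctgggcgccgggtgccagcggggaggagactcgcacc
Krt5: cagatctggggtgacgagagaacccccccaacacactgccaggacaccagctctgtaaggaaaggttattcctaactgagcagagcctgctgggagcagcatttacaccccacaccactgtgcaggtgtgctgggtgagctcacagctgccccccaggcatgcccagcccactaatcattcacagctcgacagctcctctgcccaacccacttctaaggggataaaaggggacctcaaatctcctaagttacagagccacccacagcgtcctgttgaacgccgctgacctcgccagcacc
The Dsp window is 73.0% G and C and holds 4 GC boxes, which begin at positions −137, −102, −80 and −45 from the start site. The Krt5 window is 57.7% G and C and holds none. No match to TATAAA, the core of the box named for it, was found on either strand of either window. The same held for CCAAT and for the AP-1 site, searched as TGANTCA. Among 32851 windows of the same length, 35.7% hold the GC box, 13.6% the first of these other motifs, 37.4% the second and 7.81% the AP-1 site. These matches describe letters only. The windows of Krt14 and Oxtr lie 1480 and 1210 bases inside the outer start of the gene and are not shown.

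Dsg3, a desmosomal cadherin, had the largest difference between group means in the set. Its log2 level had a lowest value of 4.62, a median of 6.16 and a highest value of 7.56 in the 6 labelled double knockouts. In the Itgb1 knockouts it was 5.15, 4.48, 5.01 and 4.21, and in Itgb3 knockouts 4.82, 3.44, 4.56 and 4.65. The controls stood at 4.37, 4.05, 4.35, 4.79 and 5.20. Of the 6 labelled double knockouts 5 lay above every tumour of the other 3 groups, and replicate 6 (4.62) lay inside their range.

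Pkp1, a plakophilin of the desmosomal plaque, had a similar layout with more overlap. Its log2 level ran from 4.91 through a median of 6.99 to 7.82 in the labelled double knockouts. It was 5.07, 6.51, 4.99 and 5.71 in Itgb1 knockouts, 4.90, 5.60, 5.77 and 5.64 in Itgb3 knockouts, and 6.56, 4.66, 4.80, 5.50 and 5.59 in the controls. Against the controls 4 of the 6 labelled double knockouts lay above every tumour. The lowest of the 6 was again replicate 6, at 4.91.

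Dsp, which encodes desmoplakin, differed less between tumours. In the labelled double knockouts its log2 level had a lowest value of 8.86, a median of 9.32 and a highest value of 9.70. It was 9.36, 9.38, 9.15 and 9.08 in Itgb1 knockouts, 8.66, 8.33, 8.93 and 8.90 in Itgb3 knockouts, and 8.58, 8.82, 8.62, 9.33 and 9.54 in the controls. The controls, from 8.58 to 9.54, overlapped each of the other groups, while every Itgb3 knockout lay below every Itgb1 knockout.

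**Figure D1:**
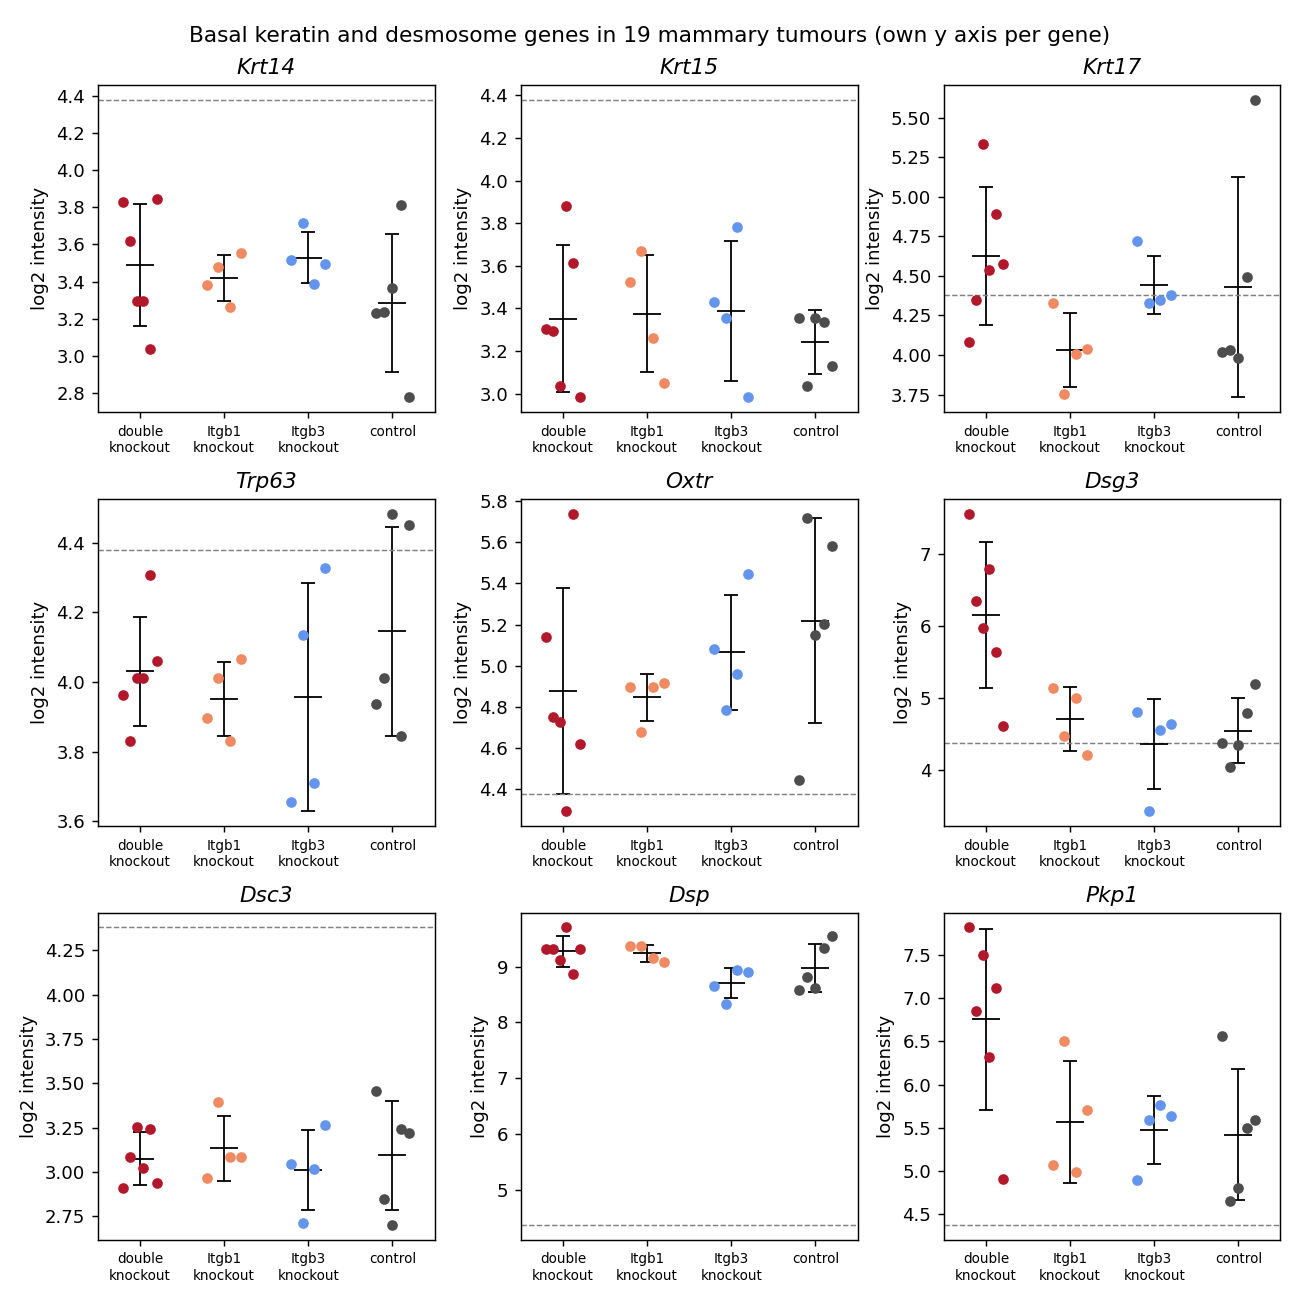
Log2 intensity (y axis, scaled separately for each gene) of the 9 genes with a probe set of their own in each tumour, by genotype group (x axis). Points are tumours, the bars give the group mean and SD, and the dashed line is the table median of 4.38. Krt14, Krt15 and Dsc3 lie below the line in all 19 tumours, and 5 of 6 labelled double knockouts lie above all other tumours for Dsg3.

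No gene of the set passed the test in the labelled double knockouts against the controls. By label this comparison targets both integrin genes, although of these only the Itgb1 transcript was lower, as given below. In limma's fit across all genes 0 of the 5 tested genes passed an adjusted p of 0.05, where 0.386% of all genes tested did, and 2 of the 5 had an unadjusted p under 0.05, where 16.9% of all genes did. These were Dsg3, at 6.16 ± 1.01 in the labelled double knockouts against 4.55 ± 0.45 in the controls (SD, n = 6 and 5), and Pkp1, at 6.76 ± 1.04 against 5.42 ± 0.76. Dsg3 differed by 1.60 on the log2 scale (SE 0.391, 3.04-fold, 95% interval 0.78 to 2.42, adjusted p = 0.0714). Pkp1 differed by 1.33 (SE 0.440, 2.52-fold, interval 0.41 to 2.25, adjusted p = 0.146). Both calls depend on 1 tumour: without labelled double knockout replicate 6, the lowest of its group for both genes, the differences were 1.91 for Dsg3 (adjusted p = 0.0196) and 1.70 for Pkp1 (adjusted p = 0.0435).

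The Itgb1 log2 level of that tumour was 8.25, where the others of its group were 8.01, 7.93, 8.50, 8.05 and 9.20. In Itgb3, which is targeted too, it was the lowest of its group at 7.69, where replicate 3 was 7.70. Its mean over the 10 fibroblast markers was 7.10 and its macrophage mean was 8.24. The ranges of the group, 6.02 to 8.07 and 7.82 to 9.00, include this tumour, which was at neither end. Whether any of these levels bears on its Dsg3 and Pkp1 levels was not tested.

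Itgb1 itself was 8.32 ± 0.48 in the labelled double knockouts and 10.16 ± 0.19 in the controls, and all 6 lay below every control. Itgb3, however, was 8.13 ± 0.39 against 8.12 ± 0.25, a level that goes against the second part of that label. The single knockouts had less of the gene they are named for: Itgb1 was 8.70 ± 0.29 in Itgb1 knockouts, and Itgb3 was 7.01 ± 0.48 in Itgb3 knockouts. Each direction given for the labelled double knockouts carries this limit.

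The other tested genes had smaller differences from the controls. Dsp differed by 0.29 in the labelled double knockouts (interval −0.08 to 0.67, adjusted p = 0.415), Krt17 by 0.20 (−0.34 to 0.74, adjusted p = 0.734) and Oxtr by −0.34 (−0.82 to 0.14, adjusted p = 0.474). Over the 9 genes measured the median difference was 0.20, with 6 above 0, beside a median of 0.03 and 55.9% above 0 over all genes tested.

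Against the Itgb3 knockouts, Dsg3 rose in the labelled double knockouts. It was the only gene of the set that passed, 1 of 5, where 2.87% of all genes passed. The level was 6.16 ± 1.01 in the labelled double knockouts and 4.37 ± 0.63 in Itgb3 knockouts (n = 6 and 4). The difference was 1.79 (SE 0.417, 3.46-fold, interval 0.92 to 2.67, adjusted p = 0.0307), and 5 of 6 tumours lay above every Itgb3 knockout. Pkp1 (1.28, interval 0.30 to 2.26, adjusted p = 0.129) and Dsp (0.57, interval 0.17 to 0.97, adjusted p = 0.1) did not pass, with 5 of 6 tumours above every Itgb3 knockout in both. Krt17 differed by 0.18 and Oxtr by −0.19. By label these groups differ in Itgb1 alone, but both integrin transcripts differed between them. In the labelled double knockouts Itgb1 was lower by 1.72 (adjusted p = 0.00055) and Itgb3 higher by 1.13 (adjusted p = 0.0223). All 6 lay above every Itgb3 knockout in Itgb3.

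The Dsg3 call was lost when the Itgb3 knockouts and labelled double knockouts were fitted alone (adjusted p = 0.0652). It was lost without labelled double knockout replicate 1 (0.0598) or 2 (0.0553), and without any 1 of Itgb3 knockout replicates 1 to 4 (adjusted p 0.0583 to 0.0958). Markers of some other cells moved in the same comparison. The macrophage genes Adgre1, which encodes F4/80, and Csf1r, the receptor of macrophage colony-stimulating factor, rose by 0.98 (adjusted p = 0.0163) and 0.98 (adjusted p = 0.0341), 2 of 6 macrophage markers. The mean over the 6 macrophage markers was 7.82 to 9.00 in the labelled double knockouts and 7.64 to 8.32 in Itgb3 knockouts. All 6 were above 0 (median 0.61), beside 54.7% above 0 and a median of 0.03 over all genes tested. For the 10 fibroblast markers 0 passed, yet all 10 were above 0 with a median of 1.01, and 7 had an unadjusted p under 0.05, where 21.1% of all genes did. The fibroblast mean was 6.02 to 8.07 in the labelled double knockouts and 5.01 to 7.61 in Itgb3 knockouts. All 12 contractile genes of myoepithelial and smooth muscle cells were above 0 (median 0.40), and 1 of them, Smtn, passed. Their mean was 6.42 to 7.04 in the labelled double knockouts and 5.97 to 6.35 in Itgb3 knockouts. The 6 endothelial markers were also all above 0 (median 0.40), with 0 passed and a mean of 6.53 to 7.45 in the labelled double knockouts and 6.51 to 6.74 in Itgb3 knockouts. Not every list rose. Adipocyte markers had 4 of 7 above 0 (median 0.02) and skeletal muscle markers 4 of 6 (median 0.07), with 0 passed in either. The other basal mammary markers had 6 above 0 and 8 below (median −0.04). Of the 12 tested 0 passed, and 6 had an unadjusted p under 0.05. The part of these cell types in the Dsg3 difference was not tested. In whole tumours, fewer cells of a type and less RNA per cell cannot be told apart.

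Against the Itgb1 knockouts the labelled double knockouts had 0 of 5 genes past the threshold, where 0.0211% of all genes passed, and 3 with an unadjusted p under 0.05, where 12.3% of all genes had one. Of the 3, Krt17 was bright enough to be tested only through the labelled double knockouts, and its count supports nothing here. Dsg3 differed by 1.44 (SE 0.417, interval 0.57 to 2.32, adjusted p = 0.178). Pkp1 differed by 1.18 (interval 0.20 to 2.17, adjusted p = 0.31) and Krt17 by 0.60 (interval 0.02 to 1.17, adjusted p = 0.386). Dsp differed by 0.03 (interval −0.37 to 0.43) and Oxtr by 0.03 (interval −0.48 to 0.55).

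The single knockouts had no gene of the set past the threshold. In the Itgb1 knockouts 0 of 5 passed against the controls (0.00703% of all genes), with 0 at an unadjusted p under 0.05. Dsg3 was 4.71 ± 0.44 in Itgb1 knockouts and 4.55 ± 0.45 in the controls (difference 0.16, interval −0.75 to 1.07), and Pkp1 was 5.57 ± 0.70 against 5.42 ± 0.76 (0.15, interval −0.87 to 1.17). Krt17 differed by −0.40 and Oxtr by −0.37, both with an adjusted p of 0.982. In the Itgb3 knockouts 0 of 5 passed against the controls (0% of all genes), again with 0 at an unadjusted p under 0.05. Dsg3 was 4.37 ± 0.63 in Itgb3 knockouts and 4.55 ± 0.45 in the controls (−0.19, interval −1.10 to 0.72), and Pkp1 5.48 ± 0.39 against 5.42 ± 0.76 (0.05, interval −0.97 to 1.07).

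Between the single knockouts, Dsp was 8.71 ± 0.28 in Itgb3 knockouts and 9.24 ± 0.15 in Itgb1 knockouts. All 4 Itgb3 knockouts lay below every Itgb1 knockout. How many of all genes separate groups in this way, here or in the paragraphs above, was not counted. Dsp differed by −0.54 (SE 0.209, interval −0.97 to −0.10, unadjusted p = 0.0191) and did not pass (adjusted p = 0.996), and 0 of 5 genes did, where 0% of all genes passed. The median difference of the 9 measured genes was 0.13 in Itgb1 knockouts against the controls, beside 0.02 over all genes. In the Itgb3 knockouts it was −0.08, beside −0.01.

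Whether the labelled double knockout differs from the sum of both single knockouts was tested as an interaction. Dsg3 had an interaction of 1.63 (SE 0.602, interval 0.37 to 2.89, unadjusted p = 0.014, adjusted p = 0.292), and Pkp1 one of 1.13 (interval −0.28 to 2.55, adjusted p = 0.512). For Krt17, Oxtr and Dsp it was 0.58, 0.18 and 0.30. Of the 5 genes 0 passed, where 0% of all genes passed. Itgb3 was 8.13 in the labelled double knockouts and 8.12 in the controls. It had an interaction of 1.01 of its own (unadjusted p = 0.00974, adjusted p = 0.271). The contrast therefore compares the labels, and it cannot say how the genes respond to loss of both integrins. The comparisons above share groups, and their values are set side by side without a further test.

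**Figure D2:**
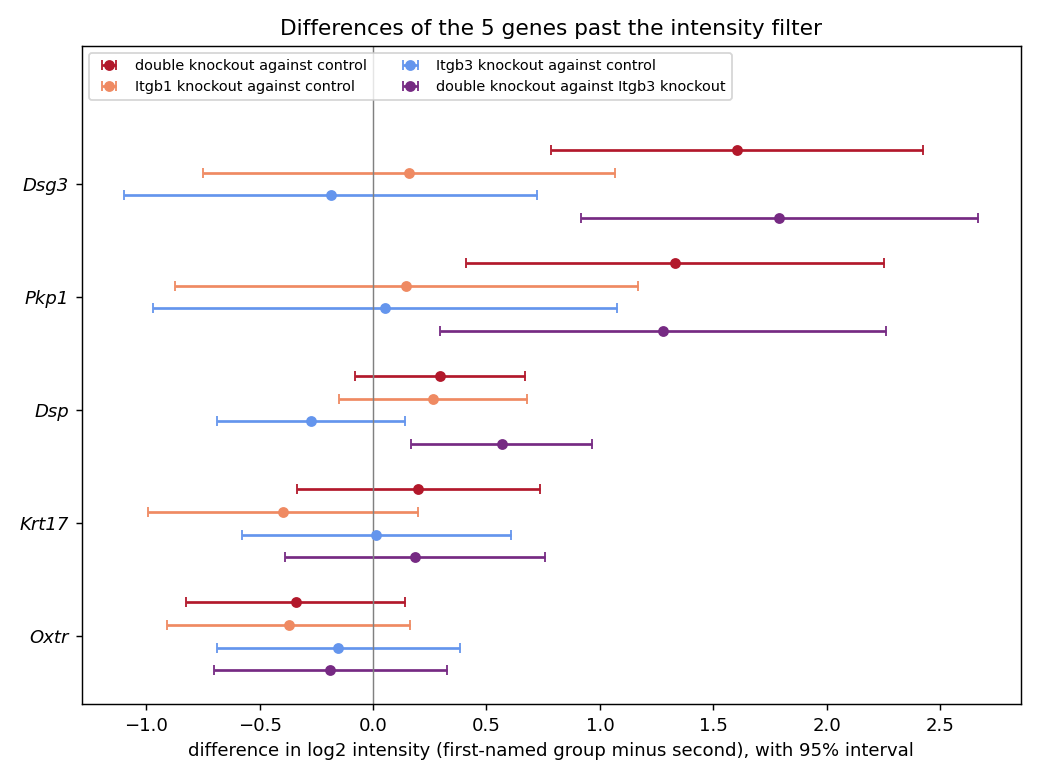
Differences in log2 intensity (x axis) of the 5 tested genes in 4 comparisons, each with its 95% interval from limma's fit. The intervals of Dsg3 and Pkp1 lie above 0 in the labelled double knockouts against the controls (0.78 to 2.42 and 0.41 to 2.25) and against the Itgb3 knockouts.

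The order of the group means was labelled double knockout, Itgb1 knockout, control and Itgb3 knockout for Dsg3 (6.16, 4.71, 4.55 and 4.37). For Pkp1 it was labelled double knockout, Itgb1 knockout, Itgb3 knockout and control (6.76, 5.57, 5.48 and 5.42). The last 3 of each order lay within the SD of their tumours. For Dsp the order was labelled double knockout, Itgb1 knockout, control and Itgb3 knockout (9.27, 9.24, 8.98 and 8.71), and neighbouring means differed by less than the SD of the controls (0.43).

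The basal keratins Krt14 and Krt15 were dim in all 4 groups. Krt14, the partner of Krt5, was below the table median in all 19 tumours, at 3.49 ± 0.33 in the labelled double knockouts, 3.42 ± 0.13 in Itgb1 knockouts, 3.53 ± 0.14 in Itgb3 knockouts and 3.28 ± 0.37 in the controls. Krt15, another keratin of basal cells, was likewise below it in all 19, at 3.35 ± 0.34, 3.38 ± 0.28, 3.39 ± 0.33 and 3.24 ± 0.15 in the same order of groups. An array has no true 0, so these values bound the transcript and do not show its absence. Krt5 could not be read alone. Its probe set shared with Krt6a was 4.56 ± 0.22 in the labelled double knockouts, 4.76 ± 0.10 in Itgb1 knockouts, 4.76 ± 0.25 in Itgb3 knockouts and 4.74 ± 0.22 in the controls, and the ranges of the groups overlapped.

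Krt17, a keratin known from basal cells and from injured or rapidly growing epithelium, reached the table median in 7 tumours. In the labelled double knockouts its log2 level had a lowest value of 4.09, a median of 4.56 and a highest value of 5.33. It was 4.33, 3.75, 4.01 and 4.04 in Itgb1 knockouts, 4.72, 4.33, 4.35 and 4.38 in Itgb3 knockouts, and 4.02, 4.03, 3.98, 4.49 and 5.61 in the controls. The labelled double knockouts lay inside the range of the controls, where replicate 5 was the highest of all 19 tumours and apart from the other 4. Of the 7 tumours at or above the table median 4 were labelled double knockouts, and the gene was tested only because of that group.

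Trp63, which encodes the p63 transcription factor needed for stratified epithelium, was at or above the table median in 2 of 19 tumours, both controls. Its level was 4.03 ± 0.16 in the labelled double knockouts, 3.95 ± 0.11 in Itgb1 knockouts, 3.96 ± 0.33 in Itgb3 knockouts and 4.15 ± 0.30 in the controls. Dsc3, the desmocollin usually found with Dsg3, was below the median in all 19 tumours, at 3.08 ± 0.15 in the labelled double knockouts, 3.13 ± 0.18 in Itgb1 knockouts, 3.01 ± 0.23 in Itgb3 knockouts and 3.09 ± 0.31 in the controls. With no filter on intensity, Krt14, Krt15, Trp63 and Dsc3 differed by 0.20, 0.11, −0.12 and −0.02 in the labelled double knockouts against the controls, with adjusted p from 0.602 to 0.967.

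Oxtr, the receptor by which oxytocin makes myoepithelial cells contract, was above the table median in 18 of 19 tumours. Its log2 level ran from 4.29 through a median of 4.74 to 5.74 in the labelled double knockouts. It was 4.90, 4.68, 4.90 and 4.92 in Itgb1 knockouts, 5.08, 4.78, 4.96 and 5.44 in Itgb3 knockouts, and 4.44, 5.72, 5.15, 5.20 and 5.58 in the controls. The groups overlapped throughout.

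Dsg3 and Pkp1 were among the most variable genes between tumours of 1 genotype. The SD within groups, pooled over the 4 groups, was 0.713 for Dsg3 and 0.804 for Pkp1, at or above those of 96.9% and 97.7% of the tested genes. Krt17 (0.458), Oxtr (0.409) and Dsp (0.309) stood at 89.3%, 85.7% and 70.7%. For Dsg3 and Pkp1 the SD was largest in the labelled double knockouts, at 1.01 and 1.04. In Itgb1 knockouts, Itgb3 knockouts and controls it was 0.44, 0.63 and 0.45 for Dsg3 and 0.70, 0.39 and 0.76 for Pkp1. Whether the genes vary together was asked on deviations from the group means, over 10 pairs of the 5 tested genes and 19 tumours. After Benjamini-Hochberg adjustment over the pairs 0 passed by Pearson's r or Spearman's rho. The strongest pair was Dsg3 with Dsp, with r = 0.51 (permutation p = 0.028, adjusted p = 0.28) and rho = 0.62 (permutation p = 0.00867, adjusted p = 0.0867), and r = 0.78 without the 2 tumours farthest from the Dsg3 median. Dsg3 with Pkp1 had r = 0.38 (permutation p = 0.223, adjusted p = 0.96) and rho = 0.11 (permutation p = 0.689, adjusted p = 0.988). That value turned to −0.28 without the 2 farthest tumours and to −0.03 without labelled double knockout replicate 6, so it rests on those tumours. Dsp with Pkp1 had r = −0.08 (permutation p = 0.77, adjusted p = 0.986) and rho = −0.01 (permutation p = 0.977, adjusted p = 0.988).

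**Figure D3:**
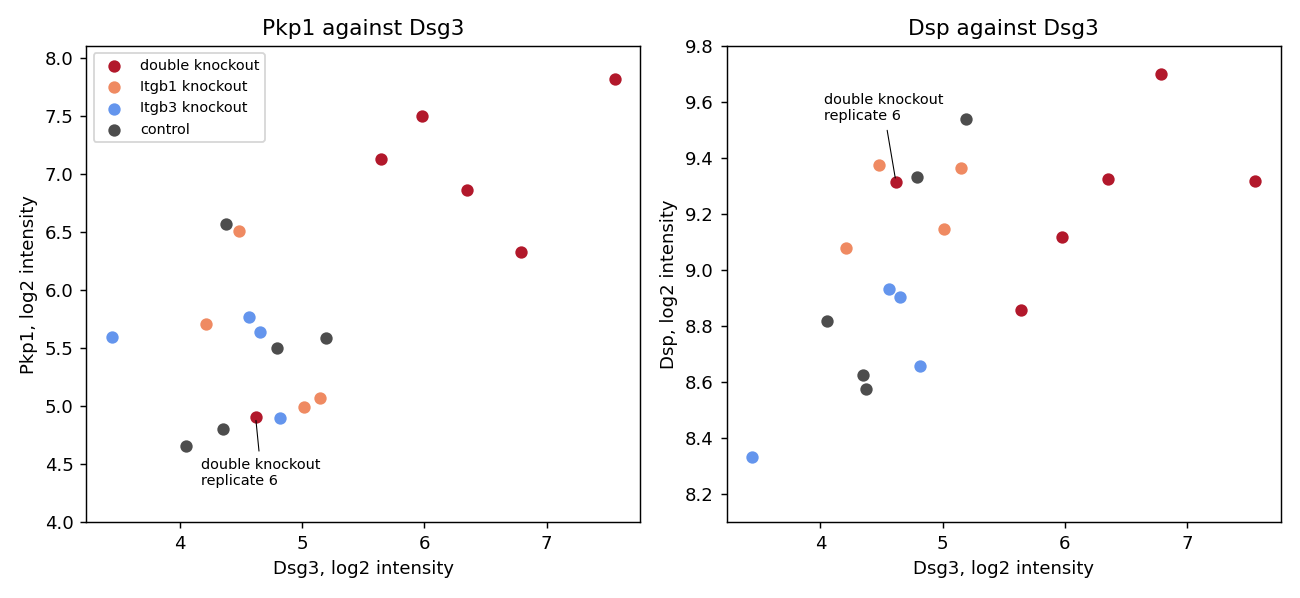
Log2 intensity of Pkp1 (left, y axis) and Dsp (right, y axis) against that of Dsg3 (x axis) in 19 tumours, coloured by group. Along the Dsg3 axis the 5 labelled double knockouts other than replicate 6 lie apart from the rest. For Pkp1 they overlap the other groups, with replicate 4 at 6.32 below control replicate 1 at 6.56. Labelled double knockout replicate 6 lies among the other groups at 4.62 for Dsg3 and 4.91 for Pkp1.

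The genes whose deviations over the 19 tumours were most like the mean profile of Dsg3, Dsp and Pkp1 were Prkd1 (r = 0.90), which encodes protein kinase D1, the calcium-binding protein gene S100a6 (0.89), the actin crosslinker gene Flna (0.86), Ticam2 (0.85), an adaptor of Toll-like receptor signalling, and Tnnt2 (0.84), a troponin. For the keratins only Krt17 could be used, and the nearest genes were Gprc5c (0.82), Ccn1 (0.81), a secreted matrix-associated protein gene, Maneal (0.80), Scrn1 (0.79) and Bst1 (0.79). Dsg3, Dsp and Pkp1 themselves had r from −0.08 to 0.51 with each other, so a high r to their mean need not hold for each of them. Genes of the set and some other tested genes were left out of this ranking. The 10 named are the highest of those ranked for each profile, and the values describe these 19 tumours only. None of the 10 passed in any knockout group against the controls, with adjusted p from 0.235 for Prkd1 in the labelled double knockouts upward. Prkd1 differed there by 0.83 and S100a6 by 1.01.

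Other desmosome genes gave no call. Of 14 other desmosome and plaque genes 9 were bright enough to test and 0 passed in the labelled double knockouts against the controls. Their median difference over all 14 was 0.02, beside 0.03 for all genes. Dsg2, the desmoglein of simple epithelia, was 9.51 in the labelled double knockouts and 9.53 in the controls. Jup, which encodes plakoglobin, was 9.24 against 9.24, and Dsc2 was 9.02 against 8.98. Pkp2, the plakophilin of simple epithelia and heart, differed by −0.48 (SE 0.205, adjusted p = 0.249), and Pkp3 by 0.31 (SE 0.150, adjusted p = 0.305). Dsg1a, Dsg1b, Dsg4, Dsc1 and Cdsn, known from the upper epidermis, were too dim to test. Dsg1c, of the same desmoglein 1 family, was bright enough, at 6.26 in the labelled double knockouts and 6.76 in the controls. It differed by −0.50 (SE 0.432, adjusted p = 0.587).

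Among 9 hemidesmosome and laminin-332 genes, which anchor basal cells to the basement membrane, 7 were tested and Itgb4 rose in the labelled double knockouts against the controls. Itgb4, the partner of the alpha 6 integrin in hemidesmosomes, was 8.76 against 7.85 (difference 0.91, SE 0.198, adjusted p = 0.0499, just inside the threshold). The list's median over 8 measured genes was 0.16. Lama3, the alpha chain gene of laminin-332, was too dim to test.

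The list means of stratified and cornified epithelium markers lay below or near the table median, although single genes were brighter. Of 12 other keratins of stratified epithelia 4 were tested and 0 passed, 7 lay below the table median in all 19 tumours (Krt1, Krt13 and Krt16 were among the 8 too dim to test), and the median difference was −0.04. Their mean level was 3.71 to 3.83 in the labelled double knockouts and 3.70 to 3.94 in the controls. Krt10 differed by −0.21 (adjusted p = 0.646) and Krt80 by 0.11 (adjusted p = 0.801). Of 18 epidermal keratinization markers 8 were tested and 0 passed, and 9 were below the table median in all 19 tumours. Flg, Ivl and Krtdap, which mark cornifying skin, were among those too dim to test, and the list's mean was 4.05 to 4.43 in the labelled double knockouts and 4.02 to 4.34 in the controls. Lypd3 differed by 0.82 (SE 0.259, adjusted p = 0.136) and Tgm1, a transglutaminase of the cornified envelope, by 0.49 (adjusted p = 0.396), with a list median of −0.03.

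Other markers of basal mammary cells gave the same count: of 14, 12 were tested and 0 passed, with a median difference of 0.05. Cdh3, which encodes P-cadherin, differed by 0.31 (adjusted p = 0.302) and Jag2, a Notch ligand, by 0.27 (adjusted p = 0.356). The 12 contractile genes of myoepithelial and smooth muscle cells were all tested and 0 passed against the controls. Their median was 0.31, with 11 of 12 above 0, and Mylk (0.49, adjusted p = 0.146) and Smtn (0.59, adjusted p = 0.148) had the smallest p. Against the Itgb3 knockouts Smtn, the smoothelin gene of smooth muscle, rose by 0.94 (adjusted p = 0.0252).

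The tissue label was checked on luminal markers. Epcam was 11.24 in the labelled double knockouts and 11.40 in the controls, Krt8 was 10.49 against 10.20 and Krt18 was 11.52 against 11.47, all high on the scale of the table. Of 12 luminal markers 10 were tested and 0 passed, with a list mean of 8.26 to 8.69 in the labelled double knockouts and 8.26 to 8.55 in the controls. Cd24a (0.52, adjusted p = 0.218) and Ehf (0.35, adjusted p = 0.233) were nearest to the threshold. Of 6 keratins of simple epithelia 5 were tested and 0 passed: Krt8 differed by 0.29 (adjusted p = 0.32) and Krt7 by 0.45 (adjusted p = 0.554). Pgr and Krt20 were too dim to test.

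Lists of other cell types are given for the same comparison of labelled double knockouts with controls, with 0 genes passed in each. Over all genes tested 55.9% were above 0 and the median was 0.03. Of 10 fibroblast markers 9 were above 0 (median 0.49), led by Fap (0.68, adjusted p = 0.289) and Col1a2 (0.61, adjusted p = 0.377). The list mean was 6.02 to 8.07 in the labelled double knockouts and 6.52 to 7.60 in the controls. Of 6 macrophage markers all 6 were above 0 (median 0.42) and 3 had an unadjusted p under 0.05. Their mean was 7.82 to 9.00 against 7.84 to 8.52, with Adgre1 at 0.63 (adjusted p = 0.105) and Csf1r at 0.53 (adjusted p = 0.242). Of 6 endothelial markers all 6 were above 0 (median 0.33) and 2 had an unadjusted p under 0.05. Their mean ran from 6.53 to 7.45 against 6.40 to 7.14, with Tie1 at 0.44 (adjusted p = 0.145) and Tek at 0.70 (adjusted p = 0.156). Adipocyte markers, 5 of 7 above 0 (median 0.21), ran from 4.33 to 5.40 against 4.39 to 5.29, with Plin1 at −0.19 (adjusted p = 0.517) and Plin4 at 0.24 (adjusted p = 0.615). Skeletal muscle markers, 5 of 6 above 0 (median 0.21), ran from 4.21 to 7.46 against 4.08 to 7.19, with Mylpf at 0.45 (adjusted p = 0.715) and Ttn at 0.23 (adjusted p = 0.8). Their part in the differences of Dsg3 and Pkp1 was not tested.

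**Figure D4:**
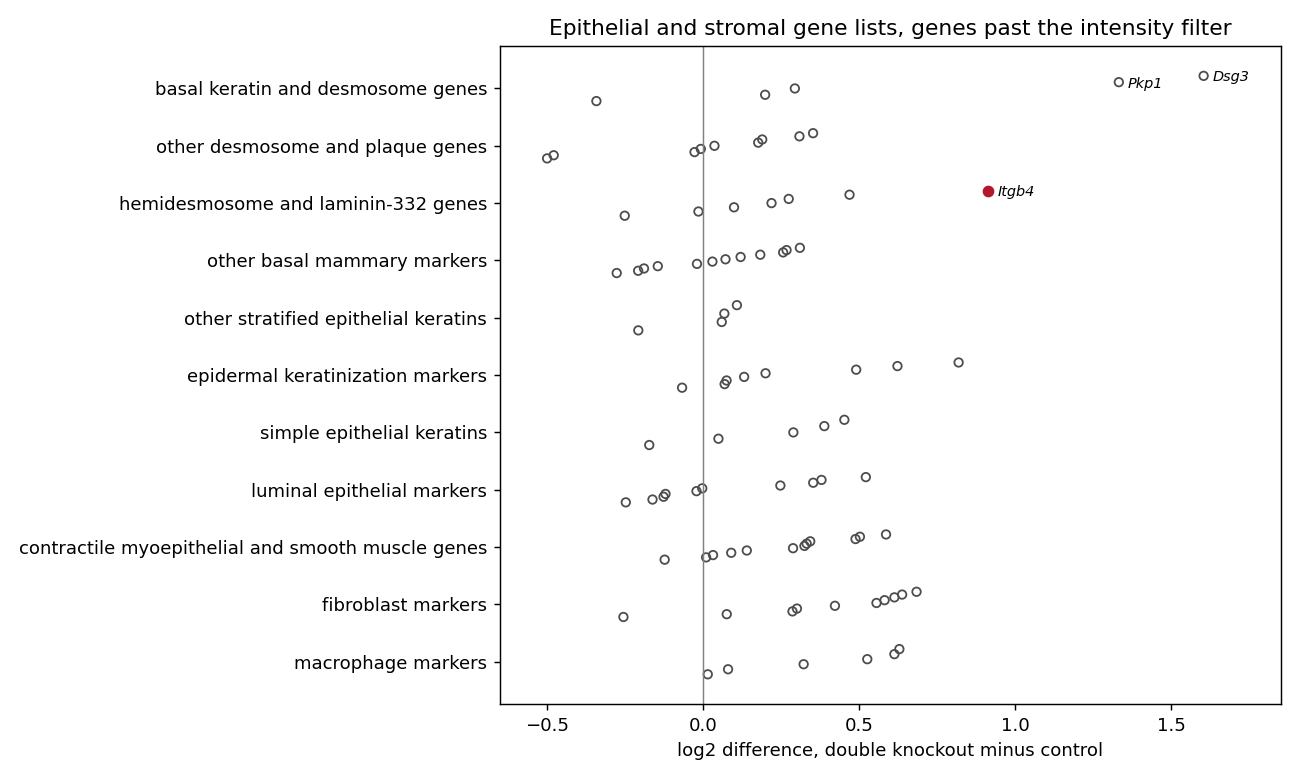
Log2 difference between labelled double knockouts and controls (x axis) for each tested gene of the lists (y axis), 1 circle per gene. The filled circle is Itgb4 (0.91), the one gene of these lists that passed, and Dsg3 (1.60) and Pkp1 (1.33) lie farthest to the right.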

How the data were processed

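Gene expression was measured on 19 arrays, 1 per tumour, after total RNA extraction with a column kit, per the labels' protocols. The deposited table holds log2 intensities of 41345 probe sets, which the authors normalized with Affymetrix Expression Console, per the submitters' processing notes (its version and summarization method: not given in the sources used here). Array medians were 4.32 to 4.48, and each array's median correlation with the others was 0.969 to 0.980. The number of arrays limits the precision. No batch or scan date was given.

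Of the probe sets, 23521 had 1 symbol, 1814 several and 16010 none, and 23328 matched the GRCm38.p6 gene table by Entrez ID, 0 of them with another symbol. The probe set with the highest mean was used per gene. Values were used as deposited. In limma 3.58.1 (R 4.3.3) 1 model of 4 group means, without covariates, was fitted to the 19 arrays (residual degrees of freedom 15, moderated to 18.7), for 7 comparisons with two-sided tests and Benjamini-Hochberg adjustment over 14231 genes. Correlations used 100000 within-group permutations (Python 3.11.15, numpy 2.4.6, two-sided). The code was tested on simulated data. Alternatives were other filters, array centring, quantile normalization, pairwise fits, array weights, another variance model and leaving out each tumour.

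The 10 genes and the 13 other lists were chosen with earlier results of these data known. Named from each list are genes that passed, or otherwise the 2 with the smallest p in labelled double knockouts against controls. The 5 ranked genes most like each profile were also named. Others were named for their role after the values were seen (Dsg1c, Dsg2, Jup, Dsc2, Cd151, Epcam, Krt18 and genes too dim to test).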

Additional observations from a re-analysis of the deposited data

Results flagged for a closer look

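In 36 groups of 4 to 6 tumours, 2 held a tumour whose distance from the nearest other was large for the range of its group (Dixon's 95% critical value), and chance gives about 1 in 20. Itgb3 knockout replicate 1 had a Krt17 log2 level of 4.72, while the other Itgb3 knockouts were 4.33 to 4.38. Itgb1 knockout replicate 2 had an Oxtr level of 4.68, while the others were 4.90 to 4.92. Neither gene passed in any comparison.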

How the results depend on the processing

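Of 867 recomputed differences of single genes, 841 kept their direction and side of the threshold or moved within the spread. For genes below the filter this count allows a change of sign within the spread. Many of the differences were far from the threshold, so the count says little about the calls. The Dsg3 call against the Itgb3 knockouts kept its side in 13 of 19 fits without 1 tumour. The number of genes of the set that passed in labelled double knockouts against Itgb3 knockouts, 1 in the main setting, was 0 with a filter at the upper quartile, where Dsg3 was not tested, 2 with arrays centred on their medians, 0 with only the groups compared and 2 with array weights. Without 1 tumour it was 0 to 2, against the controls also 0 to 2. Centring moved the median of all genes in that comparison to 0.14, against 0.03. Small differences between Itgb3 knockouts and controls turned sign: Krt17 (0.02) became −0.052 with centred arrays, −0.046 with quantile normalization, −0.018 with array weights and −0.19 with low values raised to the table median, and Pkp1 (0.05) became −0.014 with centred arrays. Without 1 tumour, Krt17 ran from −0.10 to 0.31, Pkp1 from −0.14 to 0.34 and Dsg3 from −0.34 to 0.12 there, and Pkp1 in Itgb1 knockouts against controls from −0.17 to 0.43. Of the correlations, 2 pairs passed without group centring, 1 without the 2 farthest tumours and 0 to 1 without 1 tumour. The r of Dsp and Pkp1 was 0.22 without group centring and −0.17 to 0.088 without 1 tumour, and that of Dsg3 and Pkp1 was −0.28 without the 2 farthest and −0.033 to 0.45 without 1 tumour. The cause was not tested. Over all genes, 55 passed against the controls (42 higher), 2 to 100 under other settings (100 with 87 higher after centring) and 14 to 125 without 1 tumour. Against the Itgb3 knockouts 408 passed (338 higher), 231 to 1568 under other settings (1226 with 1173 higher after centring) and 56 to 459 without 1 tumour. Against the Itgb1 knockouts 3 passed, with 2 to 33 and 0 to 24. In Itgb1 knockouts against controls 1 passed, with 0 to 1, and for the interaction 0, with up to 3 and up to 5. No paired analysis was possible because the labels give no replicate numbers that groups share.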

Other observations

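Of 7 tested hemidesmosome and laminin-332 genes 2, Itgb4 and Plec, rose in the labelled double knockouts against the Itgb3 knockouts, where 2.87% of all genes passed. Over the 8 measured genes of the list 4 were above 0 and 4 below, with a median of 0.12, beside 0.03 over all genes. Itgb4 was 8.76 in the labelled double knockouts and 7.71 in Itgb3 knockouts (1.05, SE 0.211, adjusted p = 0.0163). Plec, which encodes the keratin linker plectin, was 7.15 against 6.58 (0.57, SE 0.104, adjusted p = 0.0136). Plec also had the smallest p of these lists in the interaction (0.77, SE 0.151, adjusted p = 0.0963) and did not pass there. Against the controls Cd151, a tetraspanin that binds laminin receptors, differed by 0.47 in the labelled double knockouts (SE 0.156, adjusted p = 0.146).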
